A study of Mus musculus with 4 samples.

Results

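The genes described here are Fbxl17, Tmem245, 4930402H24Rik and Galntl5, 4 of the 20511 genes to which the deposited table of RNA editing sites assigns a site. They were picked because the repeats with the most passing editing sites lie in or near them, so the number of passing sites in these repeats is a description and not a finding. The table listed 1205261 sites in all, of which 1355 belonged to the 4 host genes. A site passed in a library when 5 or more reads covered it, 3 or more of them were altered, and the editing rate, which is the fraction of altered reads, was between 0.05 and 0.95. Of the 24200 sites that passed in at least 1 library, 168 belonged to the hosts.

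Endothelial cells (ECs) were grown from the lungs of 2 inducible ADAR1 knockout (i-KO) mice, male C57/BL6 animals of 2 weeks from separate litters, and are named EC1 and EC2. The cells of both mice carried the floxed ADAR1 gene and a Cre recombinase that 4-OH-tamoxifen switches on in culture. One culture of each mouse was treated with 4-OH-tamoxifen (TM) and the other was not (CON), which gave 4 RNA libraries, with n = 2 per group and the groups paired by mouse. ECs were selected with antibodies to CD31 and ICAM-2, and the promoter of the inducible Cre is not given in the sources used here. The CON cells were not wild type but the same floxed cells without induction, and the deletion was made in culture rather than in the animal.

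ADAR1 deaminates adenosine to inosine in double-stranded RNA, and sequencing reads inosine as guanosine. Such duplexes form where a transcript holds copies of the same repeat in opposite orientations, as is common for the short B1 and B2 elements of the mouse, and also for LINE and LTR elements. Editing of these duplexes is known to keep them from being bound by the cytosolic RNA sensor MDA5, which the gene Ifih1 encodes. The hosts are known for other things than editing. Fbxl17 encodes an F-box protein that serves as substrate receptor of a ubiquitin ligase, Tmem245 a multipass membrane protein, and Galntl5 a relative of the N-acetylgalactosaminyltransferases that is known from testis. For 4930402H24Rik no function is given here.

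The named repeats were the densest of each host and every other host repeat with at least 5 passing sites, 7 in all. All positions are in mm10 (GRCm38). In Fbxl17 they were the LTR elements MTB at chr17:63052464-63052847 with 23 passing sites and MTC at chr17:63054034-63054427 with 18, and the simple repeat (TG)n at chr17:63056061-63056107 with 11, all annotated by the authors as 3′ UTR. Tmem245 had the B2 elements B2_Mm1t at chr4:56870119-56870305 with 23 passing sites and B2_Mm1a at chr4:56875683-56875875 with 20. 4930402H24Rik had the LINE element Lx7 at chr2:130878895-130879763 with 22, and Galntl5 the LTR element LTRIS_Mus at chr5:25226272-25226856 with 20. Among the 7952 repeats with a passing site anywhere, 73.9% had only 1, and 5 repeats had 20 or more. The next repeat outside the hosts, a B2_Mm1t in Rnf168, had 19 passing sites, and was followed by MTC of Fbxl17 with 18 and by repeats of Slfn5, 2900026A02Rik and Vmn1r42 with 16 each.

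The Tmem245 elements are the ones whose sequence could be read from an annotated transcript, and stretches of them are shown because all host sites called by a test on reads lie in these elements, 4 of the 6 called positions in the stretches printed. Each line is 29 bases of the annotated Tmem245 transcript with the long 3′ UTR, written 5′ to 3′ on the minus strand, centred on a site with a high mean CON rate, and capitals mark the adenosines that passed in at least 1 library.
B2_Mm1t, chr4:56870202-56870230: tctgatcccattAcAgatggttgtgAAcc
B2_Mm1t, chr4:56870130-56870158: cagtcatttctcttAcccactgAgccatc
B2_Mm1t, chr4:56870164-56870192: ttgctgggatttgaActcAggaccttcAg
B2_Mm1a, chr4:56875798-56875826: aaggtccAgAgttcAgatcccAgcAAcca
B2_Mm1a, chr4:56875834-56875862: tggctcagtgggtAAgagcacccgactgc
B2_Mm1a, chr4:56875718-56875746: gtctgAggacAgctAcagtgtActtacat

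At all 236 sites listed for Tmem245 inside this transcript the transcript base was A. The B2_Mm1t element held 49 adenosines, of which 23 passed, and B2_Mm1a held 63, of which 20 passed. Over both elements, the base before the adenosine was G at 11.6% of the 43 passing sites and at 30.4% of the 69 other adenosines. The base after it was G at 44.2% of the passing sites and at 15.9% of the others, and the base before it was T at 32.6% and 10.1%. The low share of G before and the high share of G after the passing adenosines held in each element, with 8.70% against 46.2% before and 43.5% against 23.1% after in B2_Mm1t, and 15% against 20.9% and 45% against 11.6% in B2_Mm1a. These shares are descriptions of 2 elements of 1 transcript, without a test.

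The elements lie 5377 bases apart in opposite orientations. With 1 of them reversed and complemented, 166 of 187 aligned bases (88.8%) were identical. RNAduplex predicted a duplex of 164 base pairs between them with an energy of -279.1 kcal/mol. In that predicted duplex 32 of the 43 passing adenosines and 57 of the 69 others were paired, so the passing sites were not the more often paired ones. The duplex is a calculation and was not measured.

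MTB and MTC of Fbxl17, both of the ERVL-MaLR family, were also in opposite orientations, 1186 bases apart. Lx7 had an oppositely oriented L1 element (Lx, assigned to A730017L22Rik, 11 passing sites) 5025 bases away. LTRIS_Mus and (TG)n had no oppositely oriented repeat of their family with a passing site within 6000 bases. Such a partner was present for 27.6% of all 7952 repeats with a passing site and for 199 of the 257 repeats (77.4%) with at least 5 passing sites.

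The annotation of the repeats differed between sources. Fbxl17 runs from 63057452 to 63500017 on the minus strand in GENCODE vM21, which ends the gene before the repeats, and from 63045949 to 63504184 in RefSeq, which includes them. The Tmem245 elements were 3′ distal (B2_Mm1t) and downstream (B2_Mm1a) for the authors, and lie inside its long 3′ UTR, 56866923 to 56880249, in GENCODE. RefSeq ends Tmem245 at 56876003, which leaves B2_Mm1t 5698 bases and B2_Mm1a 128 bases outside the gene. Lx7 was 5′ distal for the authors and lies in an intron of a longer GENCODE transcript of 4930402H24Rik. It also lies within the gene A730017L22Rik on the same strand. RefSeq places Lx7 38250 bases outside 4930402H24Rik. LTRIS_Mus lies 5975 bases past the end of Galntl5, in an intron of Galnt11, the next gene on the same strand. So in GENCODE, RNA read at Lx7 cannot be told apart by position between the host and A730017L22Rik. LTRIS_Mus lies by position inside Galnt11 and outside Galntl5, and the gene its RNA came from was not tested.

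Adar, the gene of ADAR1, was read first as a check of the libraries. The study removed exons 12 to 15. In exons 12 to 14 the listed sites of the CON libraries had median depths of 145 reads (EC1, 3 sites) and 169 reads (EC2, 1 site). TM had none listed in EC1 and 65.5 reads in EC2 (2 sites). These are few sites, and their depths are raw reads, not scaled to the library. Whole-gene Adar counts rose, from 9 to 47 in EC1 and from 16 to 71 in EC2. In CON these counts were below the depth at single exon sites. They thus leave out most Adar reads there and do not measure the level of its mRNA. Gene counts summed to 1095488 to 1778732 per library, which was only 0.823% to 0.858% of all rows of the count tables, whereas 92.8% to 93.9% fell on no gene. Of the endothelial markers 10 of 10 had counts, with sums of 1373 to 1513 in CON and 1418 to 2449 in TM. The sums were 89 to 109 in CON and 104 to 123 in TM for leukocyte markers (Lyz2 and Cd3e at 0). They were 68 to 69 and 72 to 89 for fibroblast and smooth muscle, and 3 to 5 and 1 to 9 for epithelium. Male germ cell markers had 66 to 89 and 27 to 143 (Ddx4 and Prm2 at 0). All are raw sums, and the highest of each list was in EC2 TM, which had the most gene counts (1778732). The sums come from the small share of rows on genes and do not measure the level of the markers.

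Within each mouse, the TM library had fewer passing sites than the CON library in all 4 hosts. Fbxl17 went from 33 in CON to 14 in TM in EC1 and from 50 to 25 in EC2. Tmem245 went from 26 to 6 and from 38 to 12. In both of these hosts each CON library had more passing sites than each TM library.

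4930402H24Rik went from 18 to 11 passing sites in EC1 and from 23 to 18 in EC2, so that EC2 TM equalled EC1 CON. Galntl5 had 5 in EC1 CON and 21 in EC2 CON and none in either TM library. EC2 CON thus held most of the passing sites of Galntl5. EC2 TM was the deepest library, with 207323870 counts over all rows against 131796753 to 143534442 in the others, and had fewer passing sites than EC2 CON in all 4 hosts.

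**Figure D1:**
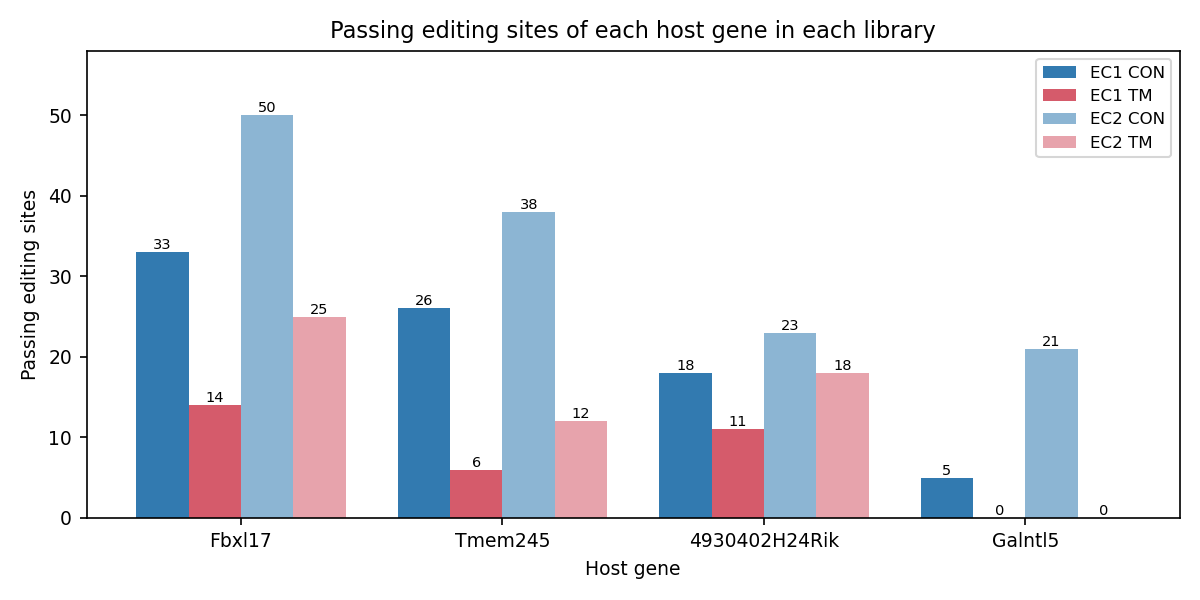
Number of passing editing sites (y axis) of each host gene (x axis) in the 4 libraries, 1 bar per library with its number above it. In each host both CON bars stand above the TM bar of the same mouse, and Galntl5 has no passing site in TM.

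In Fbxl17, 55 of the 59 passing sites were in the 3′ UTR and 4 in introns, and 52 were in the 3 named repeats. In Tmem245 all 43 passing sites were in the 2 B2 elements. In 4930402H24Rik 30 of 44 were 5′ distal and 14 intronic, spread over 10 repeats with 9 sites outside repeats, and 22 were in Lx7. In Galntl5 20 of 22 were in LTRIS_Mus and the rest in 1 other repeat. No host had a site with a rate above 0.95 at a depth of at least 5 in all 4 libraries, as a fixed difference from the reference genome would give.

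The mean editing rate of a repeat was taken over its sites that passed in at least 1 library, with a rate of 0 where a library did not list a site. Sites enter this mean through the library in which they are high, mostly CON, which favours a difference. For this reason the mean was also taken in each mouse over the sites that passed in the other mouse, a choice made after the data were seen. With 2 mice, an exact test over mice could not give a two-sided p below 0.5, so no test was made of these means.

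MTB of Fbxl17 was the most edited of the 7 repeats, with a mean rate that went from 0.317 in CON to 0.173 in TM in EC1 and from 0.299 to 0.193 in EC2. The CON minus TM difference was 0.125 ± 0.027 (SD, n = 2 mice). TM kept 0.546 of the CON rate in EC1 and 0.645 in EC2, the largest shares among the 7 repeats. Over sites that passed in the other mouse the difference was 0.145 in EC1 (21 sites) and 0.136 in EC2 (19 sites). MTB was also the repeat whose sites were most often retained, with 13 of 23 passing in all 4 libraries, against 3 in B2_Mm1t, 1 in Lx7 and 0 in the other named repeats.

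The most edited MTB sites were in a stretch of a few bases. Site 63052628 was altered in 26 of 33 reads in EC1 CON (0.788, 95% Wilson interval 0.622 to 0.893) and in 15 of 26 in EC2 CON (0.577), against 7 of 26 in EC1 TM (0.269, 0.137 to 0.461) and 11 of 31 in EC2 TM (0.355). Site 63052618 was altered in 22 of 30 and 20 of 29 reads in CON and in 13 of 28 and 14 of 30 in TM. Site 63052626 was altered in 23 of 32 and 13 of 24 reads in CON and in 7 of 25 and 9 of 30 in TM. At each of these sites both CON libraries had a higher rate than both TM libraries. Intervals cover counting error only, since reads without molecular identifiers are not independent molecules. Across the 20 passing sites of MTB listed in both CON libraries the rates of the mice correlated with r = 0.884, a description of sites that share a repeat and a library.

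MTC of Fbxl17 kept a smaller share of its mean rate in TM than MTB, with unlisted sites taken as 0. Its mean rate went from 0.154 to 0.0231 in EC1 and from 0.216 to 0.0605 in EC2, a difference of 0.143 ± 0.017 (SD, n = 2 mice). No MTC site passed in EC1 TM and 2 passed in EC2 TM, against 10 and 16 in CON. TM thus kept 0.150 and 0.281 of the CON rate in MTC and 0.546 and 0.645 in MTB. Both elements lie within Fbxl17 in RefSeq, and whether the same transcript holds both was not tested. Median depths were 21 and 14.5 reads (EC1 CON and TM) and 23 and 19 (EC2) in MTC, and 29, 25, 27.5 and 30 in MTB. EC1 TM listed 6 of the 18 passing MTC sites and 19 of the 23 passing MTB sites, so unlisted sites weigh more in MTC. Over listed sites only, MTC had 0.163 (CON) and 0.0693 (TM) in EC1 and 0.215 and 0.0838 in EC2. MTB had 0.347 and 0.210 in EC1 and 0.313 and 0.211 in EC2. The difference between the elements had the same direction in both mice and was not tested.

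The (TG)n repeat lies nearer to the start of the gene than MTC. Its 11 passing sites and all 18 of its listed sites were at odd positions, as alternating bases give. The mean rate went from 0.0656 in CON to 0.0182 in TM in EC1 and from 0.155 to 0.0433 in EC2. Of its sites 10 passed in only 1 library. Over the 2 sites that passed in EC1, the EC2 rates were 0.0625 in CON and 0.0652 in TM, so that the direction was not kept there. Over the 10 sites that passed in EC2, the EC1 rates were 0.0555 in CON and 0.020 in TM.

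B2_Mm1t of Tmem245 had mean rates of 0.144 (CON) and 0.0459 (TM) in EC1 and of 0.215 and 0.0459 in EC2. The difference was 0.134 ± 0.050 (SD, n = 2 mice), and TM kept 0.319 and 0.213 of the CON rate. Over sites that passed in the other mouse it was 0.102 in EC1 (22 sites) and 0.200 in EC2 (17 sites). Across the 20 passing sites listed in both CON libraries the rates of the mice correlated with r = 0.914, again a description of sites in 1 element.

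The strongest site of B2_Mm1t in CON was 56870216, the adenosine at the centre of the first printed stretch. It was altered in 15 of 46 reads in EC1 CON (0.326, 0.209 to 0.470) and in 21 of 48 in EC2 CON (0.438, 0.307 to 0.577), against 1 of 30 in EC1 TM (0.0333, 0.00591 to 0.167) and 3 of 71 in EC2 TM (0.0423, 0.0145 to 0.117). Site 56870178 was altered in 15 of 55 and 26 of 63 reads in CON and in 1 of 35 and 9 of 81 in TM. Site 56870144 was altered in 15 of 55 and 27 of 64 reads in CON and in 3 of 39 and 14 of 80 in TM. All 3 were higher in both CON libraries than in both TM libraries.

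B2_Mm1a, its inverted partner, was less edited and had the lowest TM rates of the hosts after LTRIS_Mus. Its mean rate went from 0.0829 to 0.00482 in EC1 and from 0.103 to 0.0353 in EC2, a difference of 0.0727 ± 0.0076 (SD, n = 2 mice). Its listed passing sites had median depths of 58 (CON) and 66 (TM) reads in EC1 and 69 and 92 reads in EC2, the highest of the 7 repeats. These are raw reads over the sites that each library lists. EC1 TM listed 5 of the 20 sites and none passed there.

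Lx7 of 4930402H24Rik had mean rates of 0.105 (CON) and 0.0482 (TM) in EC1 and of 0.145 and 0.0645 in EC2, a difference of 0.0688 ± 0.0168 (SD, n = 2 mice). It fell to 0.0494 when weighted by reads and to 0.0496 over sites that passed in the other mouse. Of its 22 sites 13 passed in only 1 library, and the rates of the mice at the 15 passing sites listed in both CON libraries correlated with r = -0.309. The order of the sites by rate was thus not shared between the mice, at median depths of 18 and 27 reads in CON.

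The named Lx7 sites show this. Site 130879072 was altered in 6 of 18 reads in EC1 CON and 1 of 17 in EC1 TM, but in 3 of 40 and 3 of 43 in EC2 CON and EC2 TM. Site 130879383 was altered in 1 of 16 and 1 of 5 reads in EC1 CON and TM, and in 9 of 23 and 5 of 23 in EC2. Site 130879212 was altered in 4 of 17 and 7 of 29 reads in CON, in 1 of 14 in EC1 TM, and was not listed in EC2 TM. Only the last was of similar rate in both CON libraries.

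LTRIS_Mus, listed under Galntl5, had a mean rate of 0.0752 in EC1 CON and 0.278 in EC2 CON, with no passing site listed in either TM library. The difference was 0.177 ± 0.143 (SD, n = 2 mice), the largest and the least precise of the densest repeats, and 16 of its 20 sites passed in only 1 library. Site 25226730 was altered in 3 of 14 reads in EC1 CON and 5 of 9 in EC2 CON, site 25226731 in 3 of 14 and 5 of 10, and site 25226708 in 4 of 24 and 7 of 20.

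The depth of LTRIS_Mus in TM is not known, because an unlisted site carries no depth. The element had 1 listed site in EC2 TM, 25226357, altered in 1 of 15 reads, and none in EC1 TM. Within 1000 bases on either side, sites of the same gene were listed 5 times in EC1 CON (median depth 20 reads), 6 times in EC2 CON (19 reads), once in EC2 TM (6 reads) and not in EC1 TM. Galnt11, in whose intron the element lies, went from 28 to 10 counts in EC1 and from 31 to 19 in EC2. These were below the median depth at its exon and UTR sites, 99 (CON) and 55 (TM) reads in EC1 and 113.5 and 90 in EC2. The counts thus leave out most of its reads and are not levels of its RNA. Scaled as for Tmem245 below, this depth was 74.4 and 41.7 in EC1 and 79.1 and 43.4 in EC2, over 2 to 8 listed sites. E130116L18Rik has an exon on the other strand there, and its share of the counts was not tested. The counts gave a log2 fold change of TM over CON of -1.40 (SE 0.48). The adjusted p was 0.0707 in edgeR, 0.0323 in edgeR with the mouse as a block and 0.461 in DESeq2. A fall of the RNA and a fall of its editing cannot be told apart for LTRIS_Mus.

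**Figure D2:**
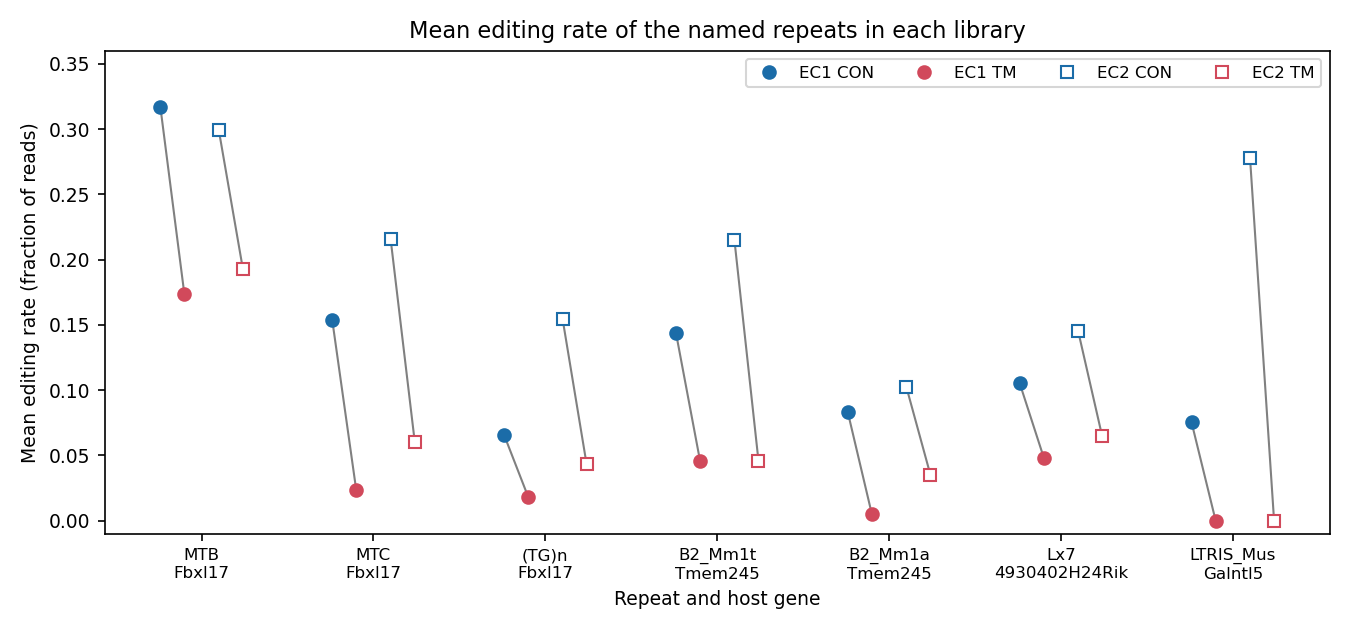
Mean editing rate (y axis, fraction of reads) over the passing sites of the 7 named repeats (x axis, with the host gene), with 1 point per library and a line joining CON and TM of the same mouse. Each line falls from CON to TM, from 0.317 to 0.173 in EC1 for MTB and from 0.278 to 0 in EC2 for LTRIS_Mus.

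Outside the hosts, 250 repeats had at least 5 passing sites. Their median rates were 0.175 (CON) and 0.10 (TM) in EC1 and 0.211 and 0.101 in EC2. The CON minus TM difference had a median of 0.0612 in EC1 (quartiles 0.0110 and 0.116) and 0.0800 in EC2 (quartiles 0.00976 and 0.157), and was above 0 in both mice in 162 repeats (64.8%). MTB and MTC exceeded the upper quartile in EC1, and B2_Mm1t and LTRIS_Mus exceeded it in EC2. Below the median were Lx7 (0.0570) and (TG)n (0.0474) in EC1 and B2_Mm1a (0.0674) in EC2. The 7 named repeats were above 0 in both mice.

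**Figure D3:**
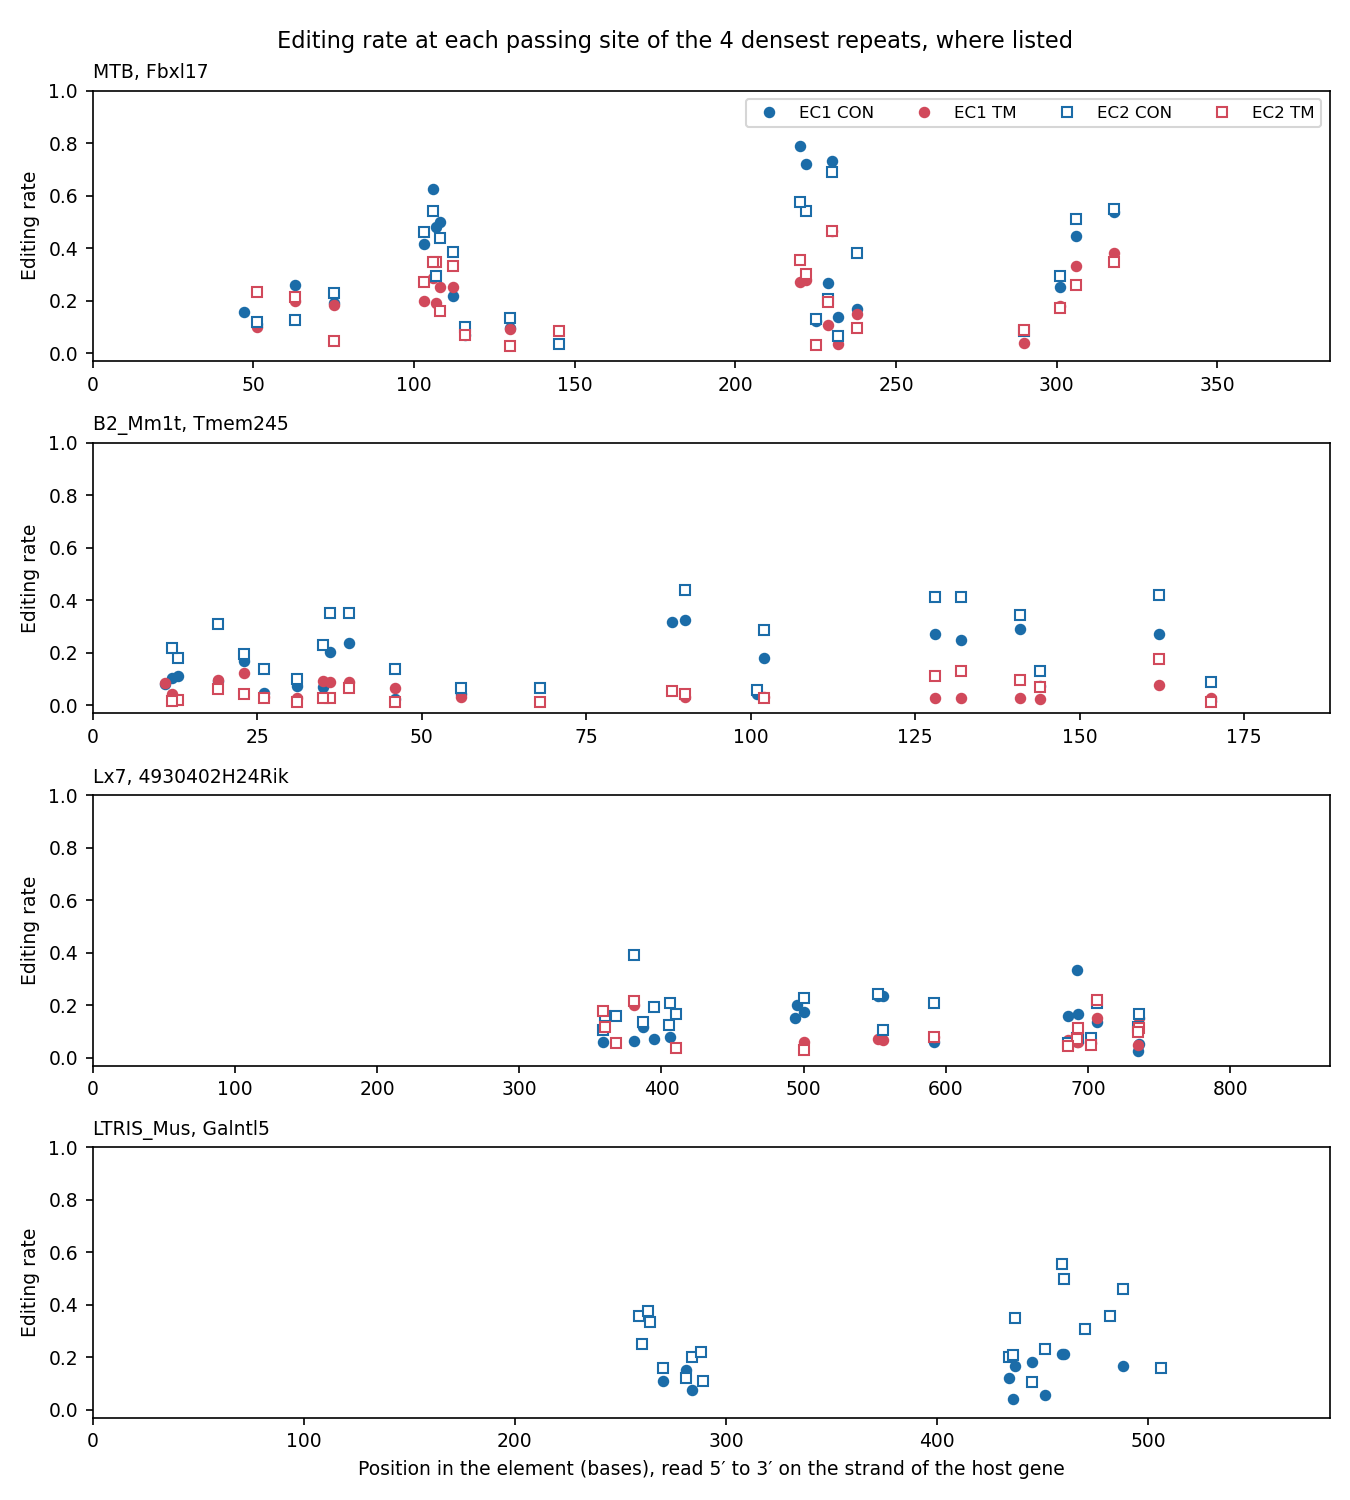
Editing rate (y axis, fraction of reads) of each passing site along the densest repeat of each host (x axis, bases 5′ to 3′ on the strand of the host gene), with 1 symbol per library where it lists the site. Sites lie in clusters separated by stretches without one, the MTB sites reach the highest rates in CON (0.788), and LTRIS_Mus shows CON symbols alone.

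In MTB the 23 passing sites covered 272 bases with a median gap of 4.5 bases, and in B2_Mm1t they covered 160 bases with the same median gap. In Lx7, the longest element at 869 bases, they covered 378 bases, and in LTRIS_Mus 248 of 585. Adjacent adenosines both passed 3 times in MTB, 4 times in each B2 element, 5 times in Lx7 and LTRIS_Mus and 6 times in MTC. In MTB 5 sites exceeded a rate of 0.5 in EC1 CON and 6 in EC2 CON. The only other site of the named repeats above 0.5 was that of LTRIS_Mus with 5 of 9 reads.

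The study's rule called a site CON over TM in a mouse when its CON rate was at most 0.95 and at least 0.05 above the TM rate, with 5 or more reads, 3 or more of them altered, in CON. By it 69 of 86 host sites that met the limits on reads in CON were called in EC1 and 112 of 135 in EC2, against 42.8% and 38.5% of such sites over all genes. In both mice 43 of 64 were called (67.2%), against 27.4% over all genes. They were 19 of 27 in Fbxl17, 16 of 25 in Tmem245, 4 of 8 in 4930402H24Rik and 4 of 4 in Galntl5. The 43 were reduced to 27 when a site had to be listed by CON and TM alike, and to 24 with at least 5 altered reads.

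In the other direction 7 of 33 host sites were called TM over CON in EC1 and 16 of 65 in EC2, against 31.2% and 27.8% over all genes. In both mice 1 of 22 was called, a site of Fbxl17, against 15% over all genes, and it was not called at a depth of at least 20 or a rate difference of at least 0.10. 4930402H24Rik gave 6 of the 7 calls in EC1 and 9 of the 16 in EC2, and none of its 4 such sites was called in both mice. Since the repeats were picked by their passing sites, these shares describe the hosts and do not test them.

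**Figure D4:**
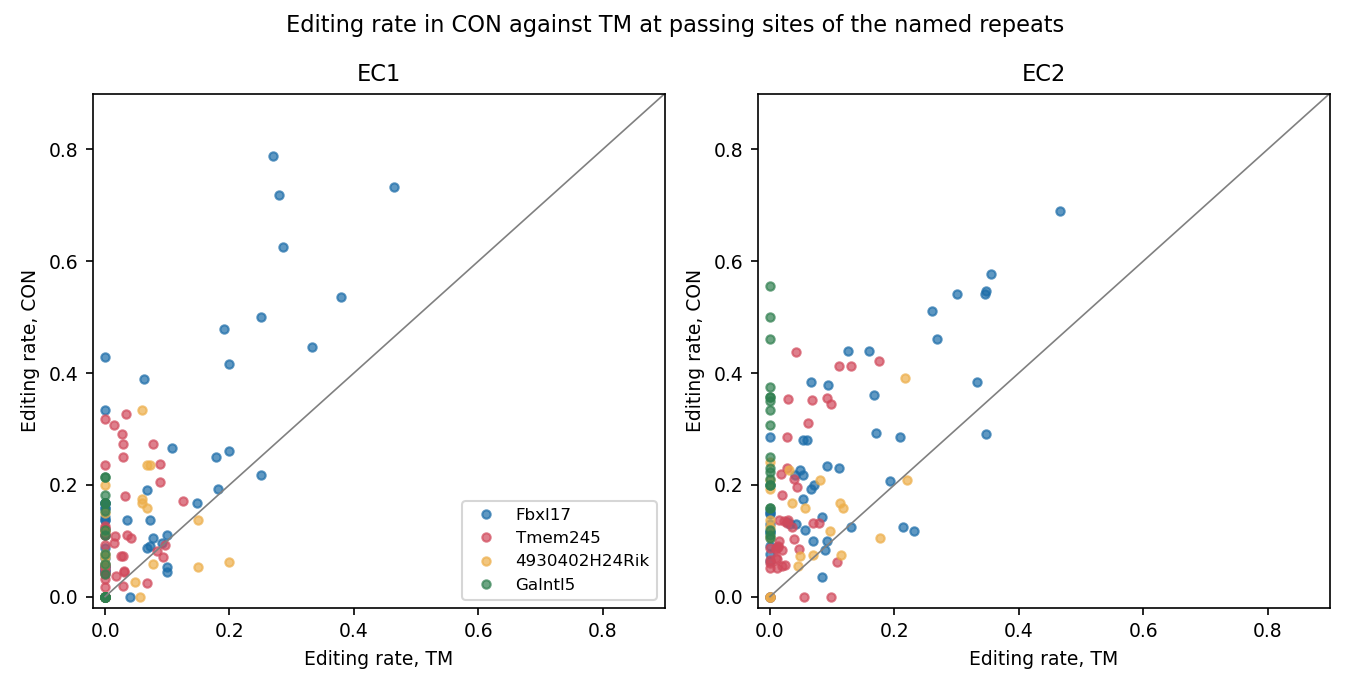
Editing rate in CON (y axis) against TM (x axis) of the same mouse at each passing site of the named repeats, coloured by host, with EC1 on the left, EC2 on the right and the line of equal rates in grey. Most points lie above the line, those on the y axis are not listed in TM, and the highest is the Fbxl17 site with 0.788 in EC1 CON and 0.269 in EC1 TM.

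Reads at each site were compared within a mouse with Fisher's exact test (two-sided, Benjamini-Hochberg adjusted over the whole table), which compares 2 libraries and not the conditions. In EC1 1 of 92 host sites was called CON over TM, against 0.132% of 45320 sites over all genes, and in EC2 6 of 155, against 0.339% of 47499. All the called sites were in the B2 elements of Tmem245, and 5 of the 6 in EC2 were in B2_Mm1t. No host site was called TM over CON, against 0.00883% and 0.00842% over all genes. At an unadjusted p of Fisher's exact test under 0.05 there were 11 of 92 host sites in EC1, all higher in CON. In EC2 there were 30 of 155, 28 of them higher in CON. The share over all genes at this unadjusted p was not taken, so these counts have no background. Most host sites passed in CON, with 82 (CON) and 31 (TM) in EC1 and 132 and 55 in EC2, which favours this direction.

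Site 56875812 of B2_Mm1a, named because of its result, was called in both mice. It was altered in 20 of 65 reads in EC1 CON and 1 of 72 in EC1 TM (adjusted p = 0.00173, Fisher's exact test), and in 27 of 76 in EC2 CON and 10 of 109 in EC2 TM (adjusted p = 0.00943, Fisher's exact test). It is the adenosine at the centre of the fourth printed stretch. In EC2 the lowest adjusted p was 0.000117 at site 56870216 (Fisher's exact test). Fbxl17 had no called site, with 24 to 33 reads at its named sites, against 30 to 109 at the Tmem245 sites given above. 4930402H24Rik had no called site either, and no passing site of Galntl5 could be tested, since TM listed none of them.

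The gene counts of the hosts were low, and neither Fbxl17 nor 4930402H24Rik, the hosts tested, was called. Tmem245 had 2 to 16 counts, below its median depth of 101.5 to 177 reads at exon and UTR sites. 4930402H24Rik had 5 to 32 counts, below a median depth of 340 to 597 reads. For these genes the counts thus leave out most reads and are not levels of the RNA. Fbxl17 went from 129 to 117 counts in EC1 and from 114 to 148 in EC2. Scaled to the counts on genes (CPM) this was 118 to 107 and 93.3 to 83.2. The log2 ratio of TM to CON was -0.21 (SE 0.31) with an adjusted p of 0.786 by edgeR's quasi-likelihood test. Lower CPM in TM was seen in both mice, but EC1 TM exceeded EC2 CON. Over all genes 612 of 7899 (7.75%) were called. Fewer cells of a type and less RNA per cell cannot be told apart in these bulk libraries.

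4930402H24Rik went from 17 to 5 counts in EC1 (15.5 to 4.56 CPM) and from 12 to 32 in EC2 (9.82 to 18.0 CPM). The mice thus went opposite ways, and the fitted log2 ratio was -0.12 (SE 0.59) with an adjusted p of 0.948 in edgeR. Tmem245 went from 2 to 3 counts in EC1 and from 10 to 16 in EC2, and was removed by the filter on low counts. Galntl5 had 0 in all 4 libraries, which allows up to 3 counts or 1.69 to 2.74 CPM.

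The genes nearest to Fbxl17 in centred log2 CPM over the 4 libraries were Cep68 (distance 0.036) and Pde2a (0.050), and those nearest to 4930402H24Rik were Arpc3 (0.163) and Aacs (0.170). This likeness rests on 4 libraries only. Of the neighbours, A730017L22Rik, which overlaps Lx7, had 1 to 3 counts per library and was not tested, and Ctnnal1, Kmt2c and Atrn were not called, with log2 fold changes of -0.66, 0.17 and -0.59 (edgeR).

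Depth at listed sites gave a different view of the levels than the counts. At exon and UTR sites of Tmem245 the median depth was 116 reads (CON) and 101.5 reads (TM) in EC1 and 130.5 and 177 reads in EC2, although the whole gene had 2 to 16 counts. Per 100000000 counts over all rows this was 87.2 and 77.0 in EC1 and 90.9 and 85.4 in EC2. At its distal and downstream sites, which include the B2 elements, it was 41.3 and 28.5 in EC1 and 43.9 and 40.0 in EC2. Both measures of Tmem245 were thus lower in TM in both mice, over the sites that each library lists. The distal and downstream sites listed were 74 (CON) and 42 (TM) in EC1 and 92 and 81 in EC2. How these depths relate to the fall in editing rate was not tested. On this scale the exon and UTR sites of 4930402H24Rik had 255.5 and 277.7 in EC1 and 286.3 and 288.0 in EC2, and those of Fbxl17 15.8 and 17.5 in EC1 and 18.1 and 12.5 in EC2. These are depths at sites that carry an altered read and not levels of the gene. The library kit marks the strand, and the counter was run with its default strand setting. Only 0.823% to 0.858% of all rows fell on genes, and the Tmem245 counts were below its depth at single sites. Counts, fold changes and marker sums given here are thus not read as levels of RNA. Which strand the counted reads came from was not tested. For the 4 hosts, GENCODE lists no exon across from them.

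Genes that edit or sense double-stranded RNA were read as a list of 14, chosen with earlier results of these data known. Of 9 tested, 5 were higher in TM, none was lower and 4 were not called, against 347 higher and 265 lower of 7899 over all genes. Their median log2 fold change was 1.87 (the same with genes at the floor in CON set to their bound) against 0.00 over all genes tested. With the mouse as a block, 6 were higher and 1 was lower, since Eif2ak2 (adjusted p of 0.00213 in edgeR) and Dhx58 (log2 fold change -1.20, adjusted p of 0.0141 in edgeR) then passed, and in DESeq2 3 were higher and none was lower. Over all genes the fit with the block called 600 higher and 584 lower, and DESeq2 called 236 higher and 129 lower. Adar had a log2 fold change of 1.87 (adjusted p of 0.00609 in edgeR and 0.0835 in DESeq2). Its counts in CON were below the depth at single exon sites, so this does not measure a change of its mRNA. How far the counts of the other listed genes follow their RNA was not tested. Tlr3, which senses double-stranded RNA in endosomes, had 2.65 (adjusted p of 0.00666 in edgeR and 0.0961 in DESeq2). Ifih1 went from 2 to 36 counts in EC1 and from 0 to 53 in EC2, and Zbp1, a sensor of left-handed nucleic acid, had 0 and 0 against 19 and 48, at least 8.53-fold higher with the floor of 3 counts per library. Oas1a, which makes the second messenger that activates RNase L, had 0 and 0 against 12 and 31, at least 5.46-fold higher. Adarb1, the gene of the other catalytically active ADAR, went from 24 to 13 and from 27 to 21 counts and was not called (adjusted p of 0.267 in edgeR). Of the hosts, neither Fbxl17 nor 4930402H24Rik was called, while the editing rates of their repeats were lower in TM in both mice.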

How the data were processed

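RNA of 4 EC libraries was depleted of ribosomal RNA, sequenced in pairs, trimmed with Trimmomatic 0.38, aligned to mm10 with STAR 2.6.1a and counted per gene with HTSeq 0.11.2 under default settings, and the authors deposited raw counts of 24421 genes without normalization. Versions are from the submitters' processing notes. Variants were called in each library by the authors with BCFtools and limited to A-to-G changes on the strand of the gene. The deposited table gives reference and altered reads and the editing rate as a fraction, set to 0 at a site that is not listed in that library. Site columns were assigned to libraries through a labelled table of the study, and 0 columns of other samples were left unused.

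The 4 hosts, the gene lists and the tests were chosen with earlier results of these data known. Gene counts were filtered with filterByExpr, scaled with TMM and tested with the quasi-likelihood test of edgeR 4.0.16 in R 4.3.3, with condition as the only factor and Benjamini-Hochberg adjustment at 0.05, with DESeq2 1.42.0, the mouse as a block, other filters and each library left out as alternatives. Named were the hosts, their densest repeat and others with at least 5 passing sites, in each densest repeat the 3 sites of highest mean CON rate that passed in at least 2 libraries, the 2 nearest genes of each tested host, and overlapping or neighbouring genes. Sites were analysed with Python 3.11.15, pandas 2.3.3, numpy 2.4.6 and scipy 1.17.1, and the duplex with RNAduplex of ViennaRNA 2.7.2. Repeat starts were raised by 1 to count from 1. Gene models and the transcript sequence came from GENCODE vM21 and RefSeq on the same build. Sequences of the other repeats were not used here. A CON and a TM culture came from the same mouse, which pairs them, and deviations from the group means correlated with r = 0.163 over 7899 genes within a mouse. Both tests were tested on simulated data. Alternatives for sites were a depth of 10 or 20, a rate of 0.10 to 0.90, a difference of 0.10, 5 altered reads, listed sites only and weighting by reads.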

Additional observations from a re-analysis of the deposited data

Results flagged for a closer look

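4930402H24Rik moved in opposite directions in the mice by its gene count. The log2 ratio of CPM, TM over CON, was -1.77 in EC1, from 17 to 5 counts, and 0.87 in EC2, from 12 to 32 counts. The difference between the mice was not tested, since each mouse gave 1 library per condition, and the counts are small. These counts were below the median depth of 340 to 597 reads at the exon and UTR sites, and are not levels of the RNA. Read depth at the exon and UTR sites of the gene per 100000000 counts over all rows was 255.5 (CON) and 277.7 (TM) in EC1 and 286.3 and 288.0 in EC2.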

How the results depend on the processing

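The edgeR test without a block called 612 genes (347 higher and 265 lower in TM), DESeq2 365 (236 and 129), the fit with the mouse as a replicate block 1184 (600 and 584), the fit without TMM factors 399 (277 and 122), and fits that left out 1 library 436 to 574. Neither tested host was called in any of these fits. With the replicate block the adjusted p (edgeR) was 0.659 for Fbxl17 and 0.830 for 4930402H24Rik, and Galnt11 passed the threshold. The log2 fold change of 4930402H24Rik ranged from -1.52 (without TM replicate 2) to 0.48 (without TM replicate 1) and was 0.11 without CON replicate 1, and the gene was removed when 10 counts were required in every library.

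Host sites called CON over TM in both mice were 43, and 24 with at least 5 altered reads, 27 when listed in both libraries, and 69 to 112 in a single mouse. Those called TM over CON were 1, and 0 at a depth of at least 20 or a rate difference of at least 0.10, and 7 to 16 in a single mouse. By reads, 2 host sites in place of 1 were called in EC1 at a depth of at least 20. The difference in rate was 0.0727 with B2_Mm1a in place of B2_Mm1t of Tmem245 (added after the data were seen). For Lx7 it was 0.0688, and 0.0494 weighted by reads, 0.104 over sites passing in the mouse in question and 0.0496 over sites passing in the other mouse (added after the data were seen). Leaving out a mouse gave 0.0979 to 0.169 for B2_Mm1t, 0.106 to 0.144 for MTB, 0.0570 to 0.0807 for Lx7 and 0.0752 to 0.278 for LTRIS_Mus, where the mean rests on EC2. Without pairing the mean differences do not change by construction. Rates of listed sites only and weighted by reads gave no value for LTRIS_Mus, which has no passing site listed in TM. The other 51 alternatives for the main results stayed within the limits set for each, and the causes of the changes were not tested.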
